A study of Mus musculus with 10 samples.

Results

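This account concerns 10 genes of the transforming growth factor beta (TGF-beta) pathway: the ligands Tgfb1, Tgfb2 and Tgfb3, the receptors Tgfbr1, Tgfbr2 and Tgfbr3, and the signal transducers Smad2, Smad3, Smad4 and Smad7. They were picked out by symbol from a table of 17274 genes, and all 10 were among the 12053 genes with enough signal to be tested. RNA was sequenced from 10 livers of wild-type mice that all ate a high-fat diet without choline (CDAHFD), used to bring about nonalcoholic steatohepatitis, in which a fatty liver becomes inflamed and scarred. In 5 livers the mice had received a control AAV (adeno-associated virus, used to carry genes into cells) by vein, and in the other 5 an AAV encoding miR-181d-5p, a microRNA. The labels used here give neither the age of the mice nor the promoter, serotype or control insert of the vectors, and no liver without the diet or without a vector entered the comparison. They give no sex, and since they name no animal for a library, the spread that p-values rest on is that between libraries.

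TGF-beta is secreted in a latent form, held in the matrix by binding proteins and released by integrins and other activators. The active ligand binds the type II receptor (Tgfbr2), which activates the type I receptor (Tgfbr1), and Tgfbr3 (betaglycan) presents ligand to them. The receptors phosphorylate Smad2 and Smad3, which enter the nucleus with Smad4, while Smad7 is induced by the pathway and inhibits it. In liver the pathway is known as a main driver of stellate cell activation and collagen deposition.

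Library totals, recovered from the FPKM as whole reads, ran from 18985912 to 20657019 reads. Alb, the defining hepatocyte transcript, was abundant in every library, with means of 22375 FPKM (control) and 22982 FPKM (miR-181d-5p, n = 5 each). FPKM scales the fragments of a gene by its length and by the depth of the library, so levels can be set side by side across genes. With 0 miR-181 genes listed, nothing here measures how much of the microRNA the livers held. In bulk liver, fewer cells of a type and less RNA per cell cannot be told apart, and this applies to every value that follows.

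MicroRNAs pair with 3' UTRs through their seed, positions 2 to 8. The 4 mature forms of the miR-181 family carry the same seed and differ after it, which is why a match cannot be assigned to miR-181d-5p alone. The RefSeq sequences on GRCm38.p6 follow, with the seed in capitals.
miR-181d-5p: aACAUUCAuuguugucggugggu
miR-181a-5p: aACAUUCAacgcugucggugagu
miR-181b-5p: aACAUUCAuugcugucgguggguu
miR-181c-5p: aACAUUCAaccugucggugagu

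Among the 10 genes, 3 held a match in the longest annotated 3' UTR: Tgfbr1, Tgfbr3 and Smad7. The search covered the 8mer TGAATGTA, the 7mer-m8 TGAATGT and the 7mer-A1 GAATGTA on the sense strand, with a 7mer inside an 8mer counted once as the 8mer. Over the 11764 tested genes that have an annotated 3' UTR, 23.0% held at least 1 such match and 5.92% an 8mer, so 3 of 10 is close to the general share. Tgfbr1 held 2 8mers in a 3' UTR of 4154 nt, and 0.561% of those genes held 2 or more. The median 3' UTR was 2862 nt in the 10 genes and 1114 nt over those genes, and these shares were not matched for length. The ligands, Tgfbr2, Smad2, Smad3 and Smad4 held none in this window. A match is a description of letters and not of binding.

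The matches in the receptors, shown because they are where the seed could pair, lie in the last exon of each transcript (mm10, sense strand, match in capitals). In Tgfbr1 they start at bases 416 and 1164 of a 3' UTR of 4154 nt (chr4:47411193-47411200 and chr4:47411941-47411948, plus strand, exon 9 of 9). In Tgfbr3 they start at bases 1640 and 2158 of 3069 nt (chr5:107107993-107107999 and chr5:107107475-107107481, minus strand, exon 17 of 17).
Tgfbr1, 8mer at base 416: ttggttcacttTGAATGTActgttctataa
Tgfbr1, 8mer at base 1164: tatagttaataTGAATGTAcaagtgtaggt
Tgfbr3, 7mer-A1 at base 1640: aaccttcagccGAATGTAactgataagta
Tgfbr3, 7mer-m8 at base 2158: atattggaaaaTGAATGTcctttagtatt

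**Figure D1:**
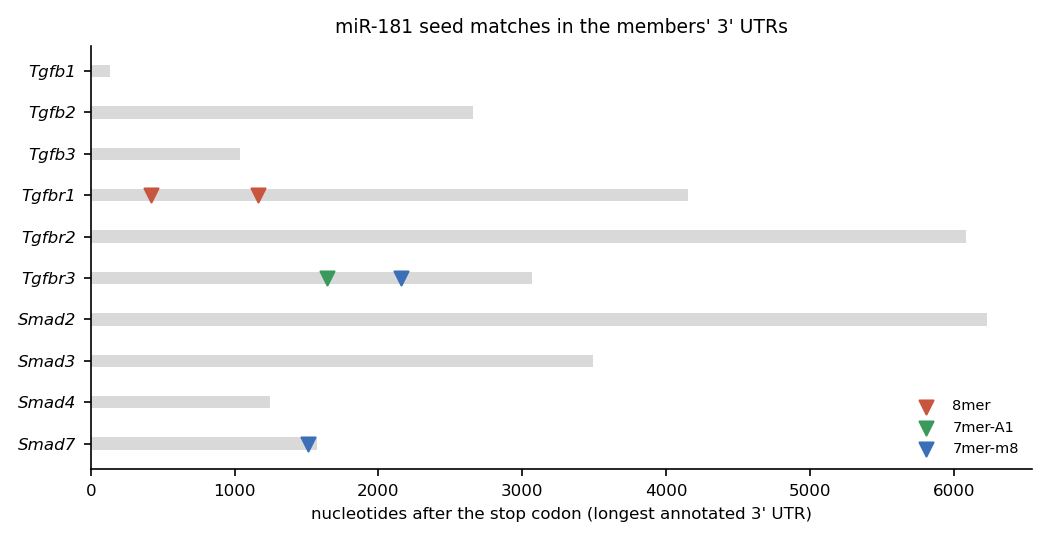
Positions of miR-181 seed matches in the longest annotated 3' UTR of each gene, as distance from the stop codon (x axis, nucleotides; grey bars show the UTR length). Tgfbr1 holds 2 8mers, Tgfbr3 a 7mer-A1 and a 7mer-m8, and Smad7 a 7mer-m8 at base 1512 of 1570, near the end of its UTR.

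The comparison asked whether the pathway's core genes differed between livers given the microRNA vector and those given the control vector. All 10 genes had a lower mean in miR-181d-5p livers, from 64.1% of the control mean (Tgfb3) to 95.8% (Smad4). The ligands Tgfb2 and Tgfb3 and all 3 receptors had the larger differences, at 64.1% to 82.7% of control, and the 4 Smads and Tgfb1 the smaller ones, at 88.1% to 95.8%. No gene of the 10 passed the test: by limma on log2(FPKM + 1) with Benjamini-Hochberg adjustment over all genes at 0.05, the lowest adjusted p was 0.240, for Tgfb3. Over all 12053 genes 0% passed as well, so the test made no call in this comparison with which the 10 could be contrasted.

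The median log2 change of the 10 was -0.19, beside -0.02 over all genes tested, of which 54.5% were lower. At an unadjusted p under 0.05, 5 of the 10 were lower (Tgfb3, Tgfbr3, Tgfbr2, Tgfb2 and Tgfbr1) and 0 higher, beside 9.63% of all genes lower and 5.04% higher. That general split was 1161 lower to 607 higher, and it became 1266 to 347 when each liver was scaled to the same FPKM sum and 942 to 997 with quantile normalization. The count of 5 was 3 without control liver 2, control liver 4, miR-181d-5p liver 1 or miR-181d-5p liver 4. In none of the 10 did the groups separate fully, which 1.45% of all genes did in the lower direction and 1.02% in the higher.

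Gene length moved with these values. Across all tested genes, the libraries of control livers 1 and 2 gave 0.119 and 0.12 more on the log2 scale per doubling of gene length, that of control liver 5 gave -0.0989, and the miR-181d-5p libraries lay between -0.032 and 0.00931. Genes of 4000 to 8000 bases, which include 7 of the 10, had a median log2 change of -0.05 with 67.3% lower, and those over 8000 bases, among them Smad2, a median of -0.10 with 81.5% lower. With this length trend removed from each liver, a setting chosen after seeing the data, 8 of the 10 had negative changes, their median was -0.15, and Smad2 and Smad4 turned to 0.02 and 0.04.

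**Figure D2:**
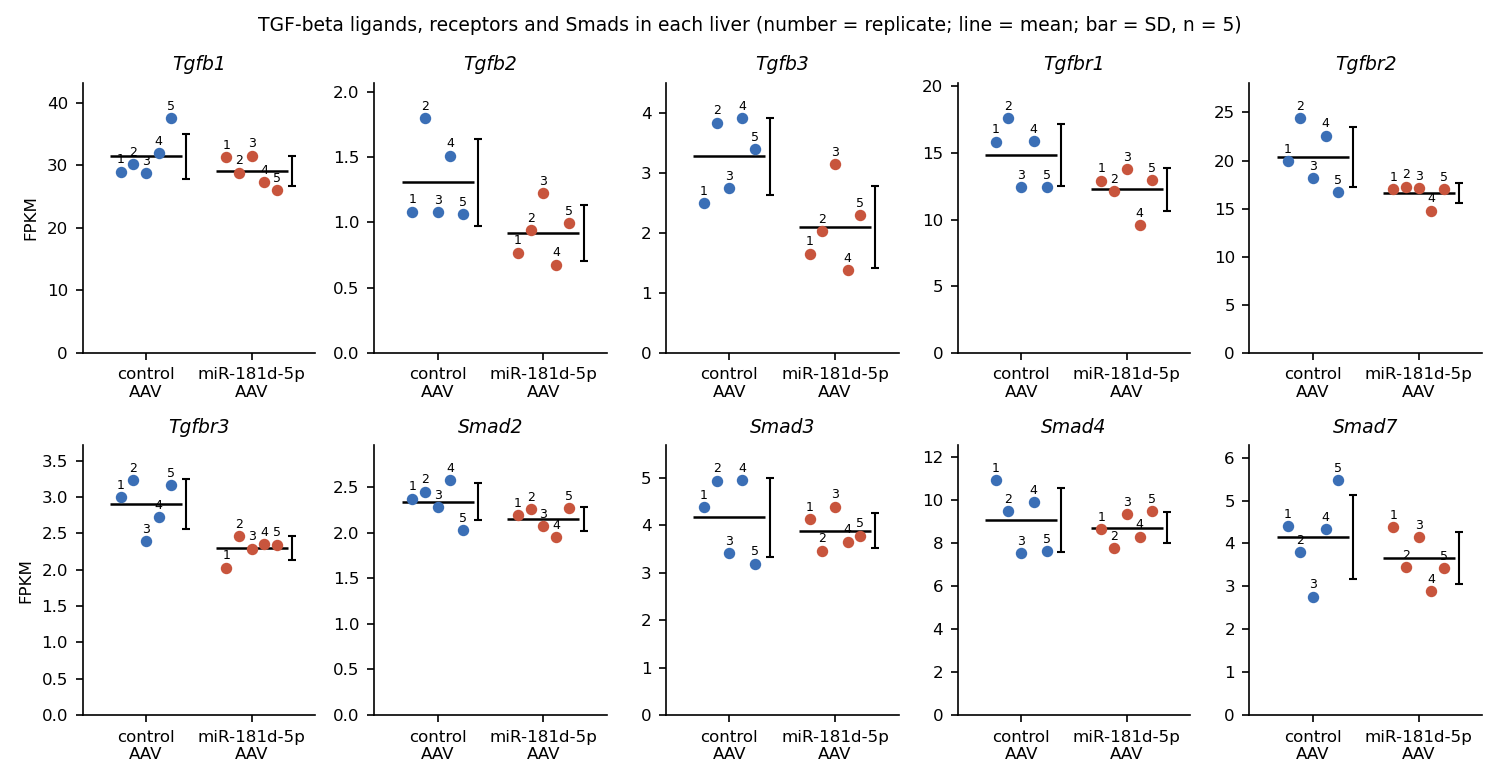
FPKM of each gene (y axes from 0, scale set per gene) in 5 control AAV livers (blue) and 5 miR-181d-5p AAV livers (red). Numbers are replicates, lines are means and bars SD. In all 10 genes the mean is lower with miR-181d-5p and the ranges of the groups overlap.

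Of the ligands, Tgfb1 was by far the most abundant and differed least. Tgfb1, the form most linked to liver fibrosis and made by macrophages, platelets and many other cells (chr7:25687002-25705077, mm10), stood at 29.0, 30.2, 28.7, 31.9 and 37.6 FPKM in control livers 1 to 5. In miR-181d-5p livers 1 to 5 it stood at 31.3, 28.8, 31.6, 27.4 and 26.1 FPKM. Control liver 5 was the highest of all, and 3 of 5 miR-181d-5p livers lay inside the control range. The means were 31.5 ± 3.63 and 29.0 ± 2.41 FPKM (SD, n = 5 each), and limma gave a log2 change of -0.11 with a 95% interval of -0.29 to 0.07 (adjusted p = 0.550). Without control liver 5 the log2 change was -0.05.

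Tgfb3 had the largest difference of the 10. This secreted isoform (chr12:86056745-86079041) stood at 2.49, 3.83, 2.74, 3.91 and 3.39 FPKM in control livers 1 to 5. The miR-181d-5p livers 1 to 5 held 1.65, 2.03, 3.14, 1.38 and 2.29 FPKM. All but liver 3 lay below the lowest control, so liver 3 alone made the groups overlap. Mean levels were 3.27 ± 0.637 and 2.10 ± 0.680 FPKM (SD, n = 5 each). The log2 change was -0.48 (SE 0.15, 95% interval -0.79 to -0.16), with an adjusted p of 0.240 by limma and of 0.145 to 0.501 over the alternatives. The antisense genes Gm37804 and Gm48008 share 163 and 257 exonic bases with Tgfb3, and their reads cannot be told apart from its own if strand was not used.

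Tgfb2, the lowest of the 10 (chr1:186622792-186705989), stood at 1.08, 1.80, 1.08, 1.51 and 1.06 FPKM in control livers 1 to 5. In miR-181d-5p livers 1 to 5 the values were 0.768, 0.939, 1.22, 0.676 and 0.996 FPKM. Again only liver 3 lay above the lowest control. These levels rest on 67 to 179 reads per liver, and the antisense gene Gm29491 shares 124 of its exonic bases. The log2 change of -0.26 (95% interval -0.49 to -0.03, adjusted p = 0.311 by limma) is understated at such a low level by the pseudocount of 1, and was -0.50 by limma voom on whole reads recovered from the FPKM.

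Tgfb2 and Tgfb3 shared several of their high and low livers. Control livers 2 and 4 were the highest of their group in both, miR-181d-5p liver 3 the highest and miR-181d-5p liver 4 the lowest of theirs. Of summed ligand FPKM, Tgfb3 made up 9.06% ± 1.42 under the control vector and 6.502% ± 1.78 under miR-181d-5p, and Tgfb1 made up 87.3% ± 2.28 and 90.6% ± 2.32 (SD, n = 5 each). The ranges of the Tgfb3 share overlapped, at 7.65% to 10.7% and 4.69% to 8.75%.

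Cholangiocyte markers (among them Krt7, Krt19, Epcam, Sox9, Cldn4 and Cd24a) shared some of the high and low livers of these ligands. Their summed level was 36.7, 65.8, 40, 67.1 and 54.0 FPKM in control livers 1 to 5, which ranks these livers as Tgfb3 does. Tgfb2 ranked the controls otherwise, with control liver 5 lowest. In miR-181d-5p livers 1 to 5 the marker sum was 34.4, 30.3, 53.9, 19.8 and 32.8 FPKM. Liver 3 was highest and liver 4 lowest, as for both ligands and for the sum of monocyte-derived macrophage markers. Liver 1 stood above livers 2 and 5 for the cholangiocyte markers but below them for both ligands. All 6 tested cholangiocyte markers had negative changes (median -0.62), beside 54.5% of all genes. At an unadjusted p under 0.05, 5 were lower, beside 9.63% of all genes, and none passed the adjusted threshold. The most abundant were Cd24a, at 19.2 and 11.99 FPKM in controls and miR-181d-5p livers, and Epcam, at 12.3 and 8.03 FPKM. The part of bile duct cells in the ligand values was not tested.

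The 3 receptors differed by similar amounts. Tgfbr2, the type II receptor (chr9:116084293-116175360), stood at 19.9, 24.4, 18.2, 22.6 and 16.7 FPKM in control livers 1 to 5. The miR-181d-5p livers 1 to 5 held 17.0, 17.3, 17.1, 14.8 and 17.0 FPKM. They were tightly grouped apart from liver 4, and control liver 5 lay among them. The log2 change was -0.27 (SE 0.10, 95% interval -0.48 to -0.05, adjusted p = 0.269 by limma), and the coefficient of variation was 15.5% under the control vector and 6.26% under miR-181d-5p. A wider spread of the controls was not particular to Tgfbr2. Of the core genes only Tgfb3 varied more with miR-181d-5p (19.4% and 32.4%), and control libraries differed more from each other in general.

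Tgfbr1, the type I receptor kinase whose 2 8mers are printed above (chr4:47353222-47414931), stood at 15.8, 17.6, 12.4, 15.9 and 12.4 FPKM in control livers 1 to 5. In miR-181d-5p livers 1 to 5 it stood at 12.9, 12.1, 13.8, 9.57 and 12.9 FPKM. Control livers 3 and 5 lay within the miR-181d-5p range, and the other 3 controls above it. Means were 14.8 ± 2.31 and 12.3 ± 1.62 FPKM (SD, n = 5 each). The log2 change was -0.25 (SE 0.11, 95% interval -0.50 to -0.004), with an adjusted p of 0.336 by limma, and it was -0.18 with the length trend removed. Tgfbr2, which holds no match, had a log2 change of -0.27 beside it, and whether the receptors differ in their change was not tested.

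Tgfbr3, the co-receptor with 2 7mers (chr5:107106570-107289629), stood at 2.998, 3.23, 2.39, 2.72 and 3.16 FPKM in control livers 1 to 5. The miR-181d-5p livers 1 to 5 held 2.03, 2.46, 2.29, 2.35 and 2.35 FPKM. Control liver 3 was the only control inside their range. Its means were 2.90 ± 0.345 and 2.30 ± 0.163 FPKM (SD, n = 5 each), a log2 change of -0.24 (SE 0.08, adjusted p = 0.250 by limma) on 241 to 376 reads per liver, and -0.17 with the length trend removed. Another gene on the same strand, Gm43422, shares 297 of its exonic bases.

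The proportions of the receptors differed by less than the spread between livers. Tgfbr2 stood at 1.37 ± 0.0787 times the FPKM of Tgfbr1 under the control vector and at 1.37 ± 0.118 times under miR-181d-5p (SD, n = 5 each). Tgfbr3 made up 7.70% ± 1.23 and 7.41% ± 0.932 of summed receptor FPKM.

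**Figure D3:**
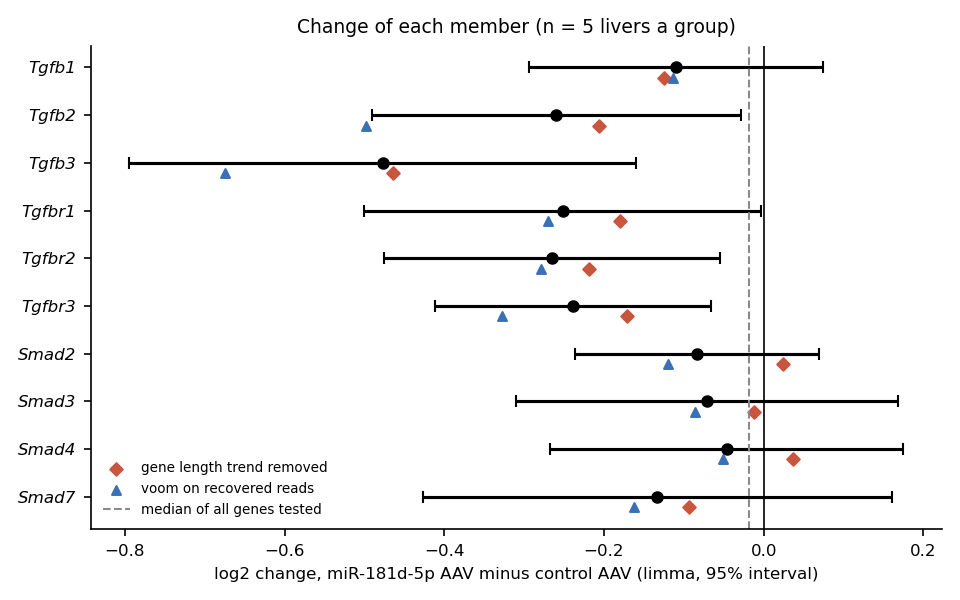
Log2 change of each gene on the log2(FPKM + 1) scale (black circles, limma, bars are 95% intervals, n = 5 livers a group), with the value after removal of a gene length trend (red diamonds) and by limma voom on recovered reads (blue triangles). Intervals of Tgfb2, Tgfb3 and the 3 receptors lie below 0 before adjustment, and those of Tgfb1 and the 4 Smads include 0.

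The Smads had small estimated differences, with wide intervals. Those of Smad3, Smad4 and Smad7 take in the log2 changes of the receptors (-0.24 to -0.27), and that of Smad2 ends near them. Whether Smads and receptors differ in their change was not tested. Smad4, the shared partner of receptor-activated Smads (chr18:73639009-73703780), stood at 10.9, 9.49, 7.53, 9.92 and 7.63 FPKM in control livers 1 to 5. In miR-181d-5p livers 1 to 5 it stood at 8.65, 7.77, 9.36, 8.31 and 9.495 FPKM. Every miR-181d-5p liver lay inside the control range. The log2 change was -0.05 (95% interval -0.27 to 0.17, adjusted p = 0.853 by limma) and turned to 0.02 without control liver 1.

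Smad3, the transducer most tied to collagen transcription (chr9:63646767-63757994), also had every miR-181d-5p liver inside the control range. It stood at 4.38, 4.94, 3.41, 4.94 and 3.19 FPKM in control livers 1 to 5, and at 4.12, 3.47, 4.39, 3.65 and 3.78 FPKM in miR-181d-5p livers 1 to 5. Controls 3 and 5 were the lowest of all 10 livers, as they were for Smad4. The log2 change was -0.07 (95% interval -0.31 to 0.17, adjusted p = 0.780 by limma), and it ran from -0.14 without control liver 5 to -0.02 without control liver 2 or 4.

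Smad2, the other receptor-activated Smad of this branch (chr18:76241580-76310963), varied least. Its control values ran from 2.03 FPKM in liver 5 through a median of 2.38 to 2.58 FPKM in liver 4, and its miR-181d-5p values from 1.96 through 2.19 to 2.27 FPKM. Only miR-181d-5p liver 4 lay below the lowest control. At 14166 bases it is the longest of the 10 genes, and its log2 change of -0.08 (95% interval -0.24 to 0.07, adjusted p = 0.583 by limma) turned to 0.02 with the length trend removed.

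Smad7, the inhibitory Smad (chr18:75367529-75395935), carries the 7mer-m8 at chr18:75395877-75395883, in exon 4 of 4, and did not differ detectably. It stood at 4.401, 3.80, 2.76, 4.33 and 5.47 FPKM in control livers 1 to 5, the largest control coefficient of variation among the Smads (23.7%), and at 4.38, 3.44, 4.15, 2.89 and 3.42 FPKM in miR-181d-5p livers 1 to 5. All miR-181d-5p values lay between control liver 3 and control liver 5. The log2 change was -0.13 (95% interval -0.43 to 0.16, adjusted p = 0.654 by limma), and it was -0.05 without control liver 5 and -0.24 without control liver 3. Smad3 stood at 1.77 ± 0.225 times the FPKM of Smad2 under the control vector and 1.81 ± 0.226 times under miR-181d-5p (SD, n = 5 each).

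By mean FPKM over all 10 livers the order was Tgfb1 (30.3), Tgfbr2 (18.5), Tgfbr1 (13.6), Smad4 (8.91), Smad3 (4.03), Smad7 (3.91), Tgfb3 (2.69), Tgfbr3 (2.60), Smad2 (2.25) and Tgfb2 (1.11). At 3 steps the ranges over livers did not touch: Tgfb1 above Tgfbr2, Smad4 above Smad3, and Smad2 above Tgfb2. Tgfbr2 exceeded Tgfbr1, and Tgfbr1 exceeded Smad4, within each of the 10 livers although their ranges overlapped. Smad3 and Smad7 were not separated, with Smad3 higher in 7 of 10 livers, nor were Tgfb3 and Tgfbr3, with Tgfb3 higher in 5 of 10.

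Seen by liver, low values were frequent in miR-181d-5p livers 2, 4 and 5 and in control liver 3. Liver 4 of the miR-181d-5p group was the lowest of all 10 livers for 5 of the genes, and all 10 lay below their control mean in it, with a median log2 difference of -0.30. All 10 were also below the control mean in miR-181d-5p liver 2 (median -0.19) and in control liver 3 (median -0.19), and 9 of 10 were in miR-181d-5p liver 5 (median -0.20). Control livers 2 and 4 held the highest value of 7 genes. Without miR-181d-5p liver 4 the median change of the 10 was -0.13, and without control liver 3 it was -0.26, the extremes over the livers left out in turn.

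**Figure D4:**
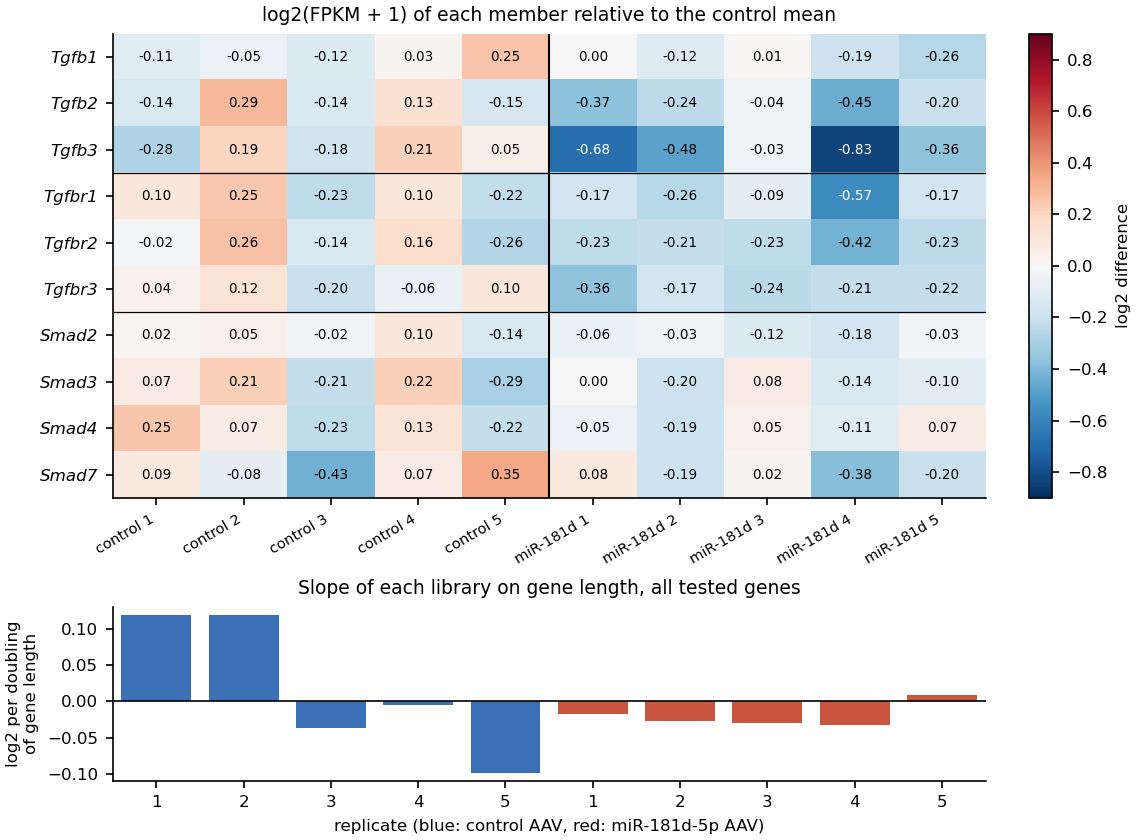
Upper panel: log2(FPKM + 1) of each gene in each liver, relative to the control mean (blue lower, red higher). Lower panel: slope of each library on gene length over all tested genes (log2 per doubling of length). Control liver 3 and miR-181d-5p livers 2 and 4 are below the control mean in all 10 genes, and the slopes of control livers 1 and 2 stand above those of the other 8 libraries.

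Other genes of the pathway were examined in 8 lists by role, with 105 of 113 genes tested. The lists were written with earlier results of these data known, so their counts are descriptions and not tests. Of these 84 had negative changes and 21 positive ones, with a median of -0.15, and none passed the adjusted threshold. At an unadjusted p under 0.05, 34 were lower and 1 higher, beside 9.63% and 5.04% of all genes. Negative changes were most frequent among target genes, latency proteins and nuclear partners, while the non-Smad branch was evenly split. Long genes were more often lower in general: 67.3% of all genes of 4000 to 8000 bases, and 81.5% of those over 8000 bases. The list counts were not matched for length.

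Genes of latency and maturation had negative changes in 10 of 11, with a median log2 change of -0.23, 7 at an unadjusted p under 0.05 (beside 9.63% of all genes) and 0 past the adjusted threshold. All but Emilin1, named for its length of 3867 bases, are longer than 4000 bases, and such genes were more often lower in general. Fbn1, the microfibril protein on which latent complexes are stored, stood at 4.38 ± 1.16 and 2.68 ± 0.505 FPKM in controls and miR-181d-5p livers (SD, n = 5 each; adjusted p = 0.222 by limma). The latent TGF-beta binding proteins Ltbp4 and Ltbp1 stood at 18.2 and 14.4 FPKM and at 1.88 and 1.33 FPKM in the same order. Pcsk6, a proprotein convertase, was the exception (log2 change 0.12), named after its value was seen.

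Activators of the latent form had negative changes in 10 of 12, with a median of -0.18. The groups did not overlap in 3 of them, beside 1.45% of all genes. Thbs1 (thrombospondin 1, which activates latent TGF-beta) stood at 8.95, 6.75, 13.3, 7.73 and 47.7 FPKM in control livers 1 to 5, and at 3.54 to 5.61 FPKM in the miR-181d-5p livers. The log2 change of -1.25 (adjusted p = 0.240 by limma) was -0.79 without control liver 5. The integrin subunits Itgb3 (1.62 and 1.07 FPKM in controls and miR-181d-5p livers) and Itgb1 (91.1 and 80.4 FPKM) separated with smaller spreads. Plg and Klkb1, made by hepatocytes and named after their values were seen, had changes of 0.09 each, and Itgb6 and Itgb8 were too low to be tested.

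Target genes of TGF-beta, a list written with earlier results of these data known, had negative changes in 26 of 27 tested. Their median log2 change was -0.38. At an unadjusted p under 0.05, 17 were lower, beside 9.63% of all genes. In 6 the miR-181d-5p group lay below the controls without overlap, beside 1.45% of all genes. Ccn2, a matricellular protein strongly induced by TGF-beta, stood at 32.1, 45.4, 52.0, 37.0 and 77.3 FPKM in control livers 1 to 5. The miR-181d-5p livers 1 to 5 held 18.1, 18.4, 22.6, 18.1 and 29.2 FPKM. No liver of one group reached the other, and limma gave -1.12 (SE 0.21, adjusted p = 0.167).

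Skil, which encodes the Smad repressor SnoN and is itself induced by the pathway, stood at 7.71 ± 0.976 and 5.59 ± 0.451 FPKM in controls and miR-181d-5p livers (SD, n = 5 each), without overlap. Cdkn1a, a cell cycle inhibitor, stood at 40.3 ± 3.27 and 30.7 ± 3.33 FPKM, also without overlap. Pmepa1, an induced inhibitor of receptor signalling, stood at 4.04 ± 0.932 and 3.20 ± 0.759 FPKM. Cdkn2b, named after its value was seen, was the gene with a positive change (0.14), and Adam12 was too low to be tested. Many of these genes are also induced by other stimuli, and several mark activated stellate cells.

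Nuclear partners of Smads had negative changes in 13 of 13, with a median of -0.15 and 2 of 13 at an unadjusted p under 0.05, Runx3 and Hdac1, which is near the 9.63% of all genes. All 13 but Hdac1 (1971 bases) are longer than 4000 bases. Of all genes, 67.3% were lower at 4000 to 8000 bases and 81.5% above 8000 bases. Runx3, a transcription factor of lymphocytes and other cells, stood at 1.08 ± 0.154 and 0.574 ± 0.148 FPKM and was the 1 gene of 13 whose groups did not overlap, beside 1.45% of all genes (log2 change -0.40, adjusted p = 0.221 by limma). Hdac1, a histone deacetylase, stood at 19.6 and 17.3 FPKM, and Zeb2 at 5.89 and 4.88 FPKM. Tgif2, Foxh1, Runx2 and Zeb1 were too low to be tested.

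Co-receptors and receptor-associated proteins had negative changes in 5 of 7, with a median of -0.14. The decoy receptor Bambi stood at 1.79 and 1.44 FPKM in controls and miR-181d-5p livers, and the neuropilins Nrp2 at 4.63 and 3.74 FPKM and Nrp1 at 12.8 and 10.8 FPKM. Eng, the endothelial co-receptor endoglin, stood at 40.1 ± 3.03 and 37.5 ± 1.75 FPKM, a log2 change of -0.09. The positive changes were those of Tgfbrap1 and Fkbp1a (0.03 and 0.02), named after their values were seen, and Cd109 was too low to be tested.

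Regulators of receptors and Smads were split, with 10 of 15 lower and a median of -0.05. Dab2, an endocytic adaptor (5.21 and 4.37 FPKM in controls and miR-181d-5p livers), and the deubiquitinase Usp11 (0.956 and 0.717 FPKM) were lower at an unadjusted p under 0.05. Stub1, a ubiquitin ligase, was higher at that level, at 53.4 ± 4.43 and 61.9 ± 3.24 FPKM (adjusted p = 0.250 by limma). These 2 lower and 1 higher of 15 are near the shares of all genes, 9.63% lower and 5.04% higher. The other 4 positive changes, of Usp4, Ppm1a, Strap and Smurf1, ran from 0.03 to 0.15 and were named after their values were seen.

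The other Smads, which serve BMP signalling, were evenly split with 2 of 4 lower. Smad1 stood at 6.24 and 5.44 FPKM in controls and miR-181d-5p livers, Smad5 at 6.25 and 5.72 FPKM, and the inhibitory Smad6 at 5.38 and 5.604 FPKM. Smad6, with a log2 change of 0.06, turned to -0.03 without control liver 3. Smad9, named after its value was seen, had a change of 0.03. The non-Smad branch, which runs through TAK1 and its partners, had 8 of 16 lower and a median of -0.002. Pak2, a kinase, stood at 13.99 and 11.9 FPKM. It was the 1 gene of 16 in this branch with an unadjusted p under 0.05, which is near the 9.63% of all genes lower at that level. Tab1, a TAK1-binding protein, stood at 2.28 and 2.63 FPKM, and the phosphatase subunit Ppp2r2a at 9.37 and 8.76 FPKM.

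**Figure D5:**
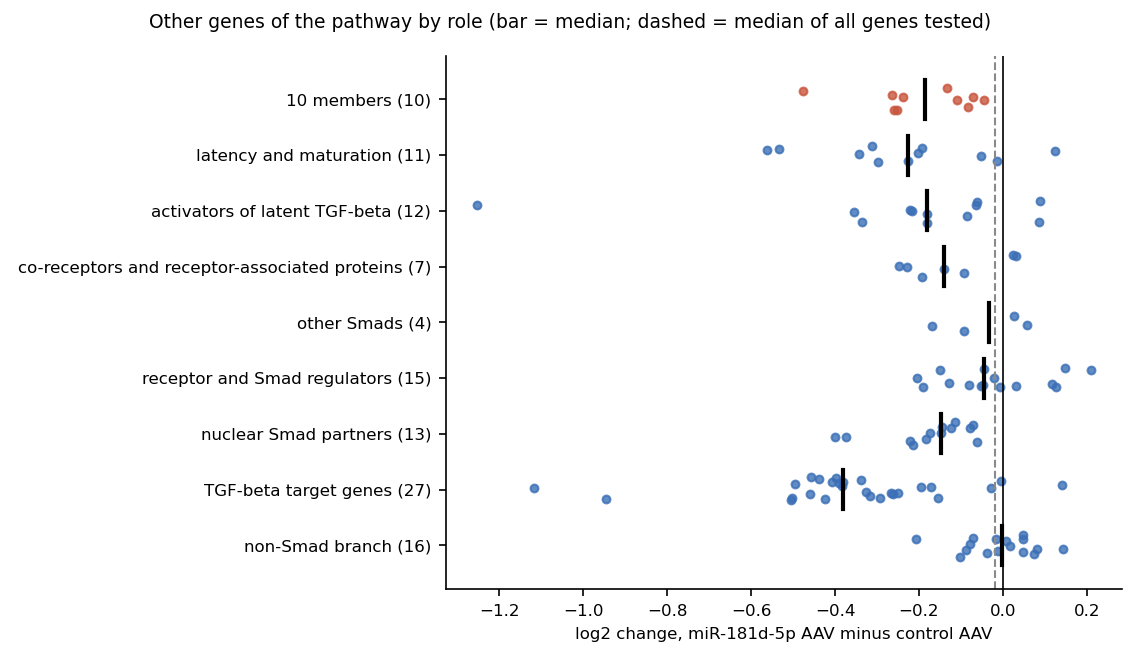
Log2 change of each tested gene (points) in the 10 core genes (red) and in 8 lists of other pathway genes (blue); black bars are list medians and the dashed line is the median of all genes tested (-0.02). Target genes have the lowest median (-0.38), and the non-Smad branch lies at -0.002.

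Cell type markers gave the following summed levels beside these values. Stellate cell and fibroblast markers ran from 367 to 538 FPKM in controls and 347 to 383 FPKM in miR-181d-5p livers, with 12 of 13 lower. Their median log2 change was -0.22, and 5 of 13 were lower at an unadjusted p under 0.05. The most abundant markers of the list were Dcn (251 and 200 FPKM) and Ecm1 (66.8 and 62.8 FPKM). Monocyte-derived macrophage markers ran from 1712 to 2521 and 1080 to 2339 FPKM, with 9 of 9 lower. Their median was -0.31, and 4 of 9 were lower at an unadjusted p under 0.05. Over all genes 54.5% were lower, 9.63% at that level, and no marker of either list passed the adjusted threshold. Lyz2 (1456 and 1203 FPKM) and Gpnmb (232 and 190 FPKM) were the most abundant. Dcn and Lyz2 make up most of their lists' sums, which averaged 445 and 2051 FPKM in controls. Both groups of markers reached their highest control level in control liver 5, where Tgfb1 and Smad7 were highest too. The hepatocyte, sinusoidal endothelial, Kupffer cell and platelet sums were also highest of the controls in that liver. So was its FPKM summed over all genes, at 502752, beside 440782 to 482553 in all other livers.

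The sinusoidal endothelial, Kupffer cell, hepatocyte, lymphocyte and platelet lists had smaller median log2 changes, from -0.14 to 0.07. The cholangiocyte list, given further above, had a larger one (-0.62). Sinusoidal endothelial sums ran from 200.1 to 230 FPKM in controls and 198 to 211 FPKM in miR-181d-5p livers. Of these markers 6 of 10 were lower, 3 at an unadjusted p under 0.05, beside 54.5% and 9.63% of all genes. The most abundant were Clec4g (57.9 and 61.8 FPKM) and Fcgr2b (43.1 and 43.1 FPKM), and Lyve1, named after its value was seen, had the lowest log2 change of the list (-0.36). Kupffer cell markers ran from 513 to 655 and 499 to 589 FPKM, with 2 of 6 lower (Cd5l 412 and 381 FPKM, Clec4f 59.5 and 64.8 FPKM). Hepatocyte sums ran from 34868 to 41547 and 36037 to 41353 FPKM, with 3 of 10 lower (Apoa1 6270 and 6026 FPKM). Lymphocyte markers had 5 of 7 lower (Nkg7 4.42 and 3.85 FPKM, Gzma 2.76 and 4.85 FPKM), and platelet markers 3 of 3 (Pf4 11.4 and 10.4 FPKM, Itga2b 1.32 and 1.09 FPKM). The lymphocyte sum ran from 11.3 to 23.6 and 12.1 to 20.9 FPKM, the platelet sum from 8.51 to 22.9 and 8.55 to 14.4 FPKM, and 0 markers of any list were at 0 in all livers. The platelet sum of 22.9 FPKM was in control liver 5, the liver highest in Tgfb1. That liver also held the highest control sums of hepatocyte, sinusoidal endothelial, Kupffer cell, stellate cell and macrophage markers, and the highest FPKM sum over all genes. The part of cell composition in the values of the 10 genes was not tested.

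The genes whose profiles over the 10 livers lay nearest to the most abundant ligand, receptor and Smad were found by the mean absolute difference per liver between log2(FPKM + 1) profiles, each relative to its own mean. Tgfb1 was nearest to Car2, Zdhhc1 and Ybx3, with differences of 0.0438, 0.0472 and 0.0475 per liver, where the median gene differed by 0.153. Tgfbr2 was nearest to Tmppe, Trim65 and Elf4, at 0.0425, 0.0437 and 0.0440, beside a median of 0.178. Smad4 was nearest to Axin1, Papola and Upf2, at 0.0304, 0.0353 and 0.0360, beside a median of 0.157. Axin1 is also on the list of receptor and Smad regulators. A gene with the same value in every liver would differ by 0.103 from Tgfb1, 0.160 from Tgfbr2 and 0.136 from Smad4, less than the median gene. The nearest genes are the smallest differences picked from all tested genes. These are descriptions over 10 livers that share library and length trends.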

How the data were processed

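Per the labels' protocols, mirVana reagents served for RNA extraction and the TruSeq Stranded mRNA kit for libraries. The authors deposited 1 table of FPKM, with 1 column per liver. The submitters' processing notes list HISAT2 2.2.1, DESeq2 1.18.1, HTSeq 0.13.5, Trimmomatic 0.38, FastQC 0.11.9 and R 3.4.1, without their roles, and the build mm10. Use of strand in counting, and the FPKM formula, are not given in the sources here.

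Columns were matched to livers by group and number. Genes averaging 0.5 FPKM or more were tested as log2(FPKM + 1) in limma 3.58.1 (R 4.3.3; lmFit, eBayes with trend, group as the only term, two-sided, Benjamini-Hochberg over all genes). A log2 change on this scale understates the change of low genes. Whole reads were recovered by a search over gene lengths and library totals, within 0.02 of a read in every liver, for 17273 of 17274 genes, and serve as depth and for voom. The fit and the recovery were tested on simulated data. Livers of a group differed by more than counting noise. The chi-square per degree of freedom was 20.85 to 63 between pairs of controls and 8.53 to 20.59 between pairs of miR-181d-5p livers. Positions, 1-based, and 3' UTRs come from GENCODE vM21 (mm10), and microRNAs from RefSeq. All 10 symbols were found in the reference.

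The members and gene lists were chosen with earlier results of these data known. Besides the 10 genes, the text names up to 3 genes per pathway list with the smallest p, always Ccn2, Pmepa1, Skil, Eng and Smad6, the 2 most abundant markers per cell type, and the 3 nearest profiles. A result of the rule that is withheld is not reported here. Alternatives were pseudocounts of 0.1 and 0.5, a mean of 1 FPKM or no filter, a common sum, quantile normalization, robust eBayes, a replicate block, array weights, each liver left out in turn, voom and, chosen after seeing the data, voom with quality weights and removal of a gene length trend (lowess, span 0.3). Other steps ran in Python 3.11.15 with pandas 2.3.3 and numpy 2.4.6, and figures were drawn with matplotlib 3.10.9.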

Additional observations from a re-analysis of the deposited data

Results flagged for a closer look

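In 36 genes named with a change, each examined in both groups of 5 livers, 4 cases had 1 liver far from the other 4 of its group, meaning a gap to the nearest liver above 0.71 of the group's range. Chance gives about 1 such case in 20 groups, and 72 groups were examined. Among the 10 core genes the case was Tgfbr2, at 14.79 FPKM in miR-181d-5p liver 4, where the other 4 lay between 17.0 and 17.3 FPKM. Dab2 was lowest in the same liver, at 3.805 FPKM. Runx3 was highest in miR-181d-5p liver 1, at 0.8294 FPKM. Thbs1 was highest in control liver 5, at 47.71 FPKM.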

How the results depend on the processing

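Of 220 refits of the 10 core genes over 22 alternatives, 217 kept direction and side of the threshold, and no core gene passed under any of them. The 3 others turned in sign: Smad2 to 0.02473 and Smad4 to 0.03665 with the gene length trend removed, and Smad4 to 0.0168 without control liver 1 (range -0.104 to 0.0168 over livers left out). The cause was not tested. The median of the 10 moved by less than the SD between livers (0.129) under every alternative, and the median of each pathway list by less than its own SD. Of the refits of other named genes, 568 kept both, Smad6 turned to -0.02681 without control liver 3 (range -0.02681 to 0.1181 over livers left out) and Ccn2 passed the threshold in 1. Genes named only as cell type markers were not refitted. The count of all genes past the threshold, 0 by limma (1161 lower and 607 higher at an unadjusted p under 0.05) and 0 by voom, was 2 by voom with quality weights (Inhbb and Jdp2). Leaving out 1 liver gave 0 to 3, with 3 without control liver 1 and 1 without control liver 5 or miR-181d-5p liver 3. The count of core genes at an unadjusted p under 0.05 was 3 to 5 over these leave-outs. In a replicate block on the labels' numbers, 1 gene passed, Ccn2 (log2 change -1.117, adjusted p = 0.0137), and 3 core genes had an unadjusted p under 0.05. Whether the numbers pair the livers is not stated. Correlations of same-numbered deviations ran from -0.283 to 0.015, and 0 of 5 was the highest for its own number. Such correlations cannot show whether livers were handled in pairs. With 8mers alone, 1 core gene held a seed match in place of 3. Tgfb2 and Tgfb3, at 67 and 89 reads in their lowest liver, are most limited by depth.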
